A study of Mus musculus with 46 samples.

Results

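The genes examined here are 8 genes of the epithelial-mesenchymal transition (EMT): the transcription factor genes Snai1, Snai2, Zeb1, Zeb2, Twist1, Twist2 and Prrx1, and Cdh2, which encodes the adhesion protein N-cadherin. They were taken by name from 22238 protein-coding genes, and all 8 were found in the annotation (GENCODE vM1, mouse build mm9). Peaks from ChIP-Seq against H3.3 (a variant of histone H3), H3K4me3 and H3K36me3 (trimethylation of H3 at lysine 4 and at lysine 36) were summed over each gene with 1 kb on either side. The score of a peak is its tag count scaled to 10 M tags per library, and the sum is called the score of the gene below. A sum grows with the length of the gene, so levels are compared between genes only by tags per covered kb or by the share of the window under peaks.

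Mouse embryonic fibroblasts (MEFs) carrying an Oct4-GFP reporter were infected with pMXs retroviruses for Sox2, Klf4, Oct4 and c-Myc and kept without feeder cells. Cells of day 0 (D0) and day 3 (D3) were taken without sorting. Sorting used Thy-1, a surface marker of fibroblasts (T), on days 6 and 9 and the stem cell antigen SSEA-1 (S) on days 12 and 16. The fractions counted as successful on the way to induced pluripotent stem cells (iPSCs) are D6T- and D9T-, followed by D12S+ and D16S+, and the remaining fractions (D6T+ and D9T+, then D12S- and D16S-) are the unsuccessful ones. ESD3 is an established mouse embryonic stem cell line. H3.3 was measured in all 12 of these, and H3K4me3 and H3K36me3 in the 7 libraries from D0 to iPSCs on the successful route. A further 4 H3.3 libraries come from the conversion of fibroblasts to hematopoietic progenitors by Scl, Lmo2, Runx1 and Bmi1, on inactivated OP9 stromal cells: MEF on day 0, D4 on day 4, and the end cells sorted as cKit+ or cKit-. Every group has 1 library, so no difference could be set against a spread between replicates and no test was made. In such libraries fewer cells with a peak and less of the mark per cell cannot be told apart.

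EMT is the program by which epithelial cells give up their junctions and become motile mesenchymal cells. SNAI1 and SNAI2 are zinc-finger repressors and ZEB1 and ZEB2 zinc-finger homeobox repressors that bind E-boxes, among them those of the E-cadherin gene Cdh1. TWIST1 and TWIST2 are basic helix-loop-helix factors, and PRRX1 is a homeobox factor of mesenchyme. Fibroblasts carry the mesenchymal side of this program, and conversion to pluripotent cells passes through the reverse, mesenchymal-epithelial transition. H3.3 is placed outside DNA replication at regulatory elements and over transcribed genes, H3K4me3 lies at active or poised start sites, and H3K36me3 lies over the bodies of transcribed genes.

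The promoters of 3 members are shown because all had H3K4me3 over the start site in D0 and in iPSCs, and because they span the range of CpG content found here. Each is the 250 bases just before the first annotated start site, read from mm9 in the direction of the gene, with CpG dinucleotides in capitals.
Snai1 promoter, chr2:167363445-167363694, plus strand: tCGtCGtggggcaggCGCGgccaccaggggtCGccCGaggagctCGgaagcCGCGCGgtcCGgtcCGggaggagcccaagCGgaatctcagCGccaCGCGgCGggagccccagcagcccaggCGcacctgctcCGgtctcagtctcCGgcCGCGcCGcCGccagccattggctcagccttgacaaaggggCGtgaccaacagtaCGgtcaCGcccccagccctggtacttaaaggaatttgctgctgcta
Twist2 promoter, chr1:93697788-93698037, plus strand: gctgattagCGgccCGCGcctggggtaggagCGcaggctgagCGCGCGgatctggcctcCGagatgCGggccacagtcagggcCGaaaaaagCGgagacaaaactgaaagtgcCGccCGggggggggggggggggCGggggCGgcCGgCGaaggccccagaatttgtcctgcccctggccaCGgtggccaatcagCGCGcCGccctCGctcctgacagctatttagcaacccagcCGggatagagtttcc
Prrx1 promoter, chr1:165243842-165244091, minus strand: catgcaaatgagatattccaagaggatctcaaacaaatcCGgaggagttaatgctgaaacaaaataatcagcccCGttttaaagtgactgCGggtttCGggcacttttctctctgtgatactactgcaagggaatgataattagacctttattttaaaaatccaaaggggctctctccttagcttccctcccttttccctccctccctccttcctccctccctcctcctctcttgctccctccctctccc
The Snai1 promoter holds 27 CpG, more than 90.6% of 22233 promoters of the same length, and the Twist2 promoter holds 23, more than 84.8%. The Prrx1 promoter holds only 4 CpG, with 31.0% of promoters below it. The median promoter holds 8. The promoters of Twist1 and Zeb2 lie between these, with 18 and 9 CpG. The E-box CAGGTG, searched on both strands and so also as CACCTG, is found 1 time in the Snai1 window and in none of the other 4, against 17.0% of all promoters. The promoters of Snai2, Zeb1 and Cdh2 are not shown.

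Of the 8 genes, Twist2, Prrx1 and Zeb2 held bases that were under an H3.3 peak in D0 and in all 4 unsuccessful fractions and in none of D12S+, D16S+, iPSCs and ESD3. The 200 bases at the centre of the longest such stretch are shown for each, since these bases had H3.3 in every unsuccessful fraction and not at the end of the successful route. D6T- and D9T- were not part of this choice. How many of all genes hold such bases was not counted, so the stretches are not shown to be particular to these genes. All 3 windows lie in introns. They are printed on the plus strand of mm9, and capitals mark matches to the E-box CAGGTG or CACCTG.
Twist2 intron, chr1:93712553-93712752, plus strand: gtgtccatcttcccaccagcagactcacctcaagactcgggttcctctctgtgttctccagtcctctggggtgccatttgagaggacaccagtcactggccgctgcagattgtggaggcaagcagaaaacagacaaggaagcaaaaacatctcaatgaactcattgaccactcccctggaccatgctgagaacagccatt
Prrx1 intron, chr1:165222734-165222933, plus strand: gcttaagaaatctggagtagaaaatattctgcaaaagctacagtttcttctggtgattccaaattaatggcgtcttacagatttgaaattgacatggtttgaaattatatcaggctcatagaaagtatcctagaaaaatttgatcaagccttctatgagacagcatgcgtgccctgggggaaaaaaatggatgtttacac
Zeb2 intron, chr2:44875409-44875608, plus strand: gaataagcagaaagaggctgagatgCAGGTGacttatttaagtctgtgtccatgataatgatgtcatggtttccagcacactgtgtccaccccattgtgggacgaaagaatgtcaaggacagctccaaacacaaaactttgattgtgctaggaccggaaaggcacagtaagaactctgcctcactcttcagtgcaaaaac
The stretch in Twist2 is 444 bases long, at chr1:93712431-93712874. In Prrx1 it is 1267 bases long, at chr1:165222200-165223466, and it is the longest of 13 stretches that add up to 6761 bases. In Zeb2 it is 327 bases long, at chr2:44875345-44875671. None of the windows matches the AP-1 motif TGANTCA, which 9.21% of 89612 windows of 200 bases at the centres of D0 H3.3 peaks hold. The E-box is in 14.1% of those windows and occurs 1 time in the Zeb2 window. D12S+ and D16S+ had the fewest H3.3 peaks of the 12 reprogramming libraries, 45922 and 34062, whereas iPSCs had 81867.

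The libraries differ in depth and enrichment. Total tags ranged from 13.2 to 91.8 M, and the share of H3.3 tags in peaks from 1.65% (cKit+) to 37.21% (D4). It was 4.88% in D16S+ and 6.93% in D12S+ against 12.21% in D16S- and 21.96% in D12S-. The H3K4me3 library of D16S+ had 3.71% of its tags in peaks, and the H3K36me3 library of D12S+ had 1.07%. The lowest score of a called peak was between 3.54 and 6.06 tags, so a gene without a peak is one in which nothing above that level was called, not one without tags. Fibroblast and pluripotency markers differed between D0 and iPSCs in the direction of the labels. In D0, 9 of 10 fibroblast markers had an H3.3 peak (all but Lum) and 3 of 9 pluripotency markers did, where 61.9% of all genes did. So did 5 of 7 epithelial, 3 of 4 endothelial and 5 of 10 hematopoietic markers, but none of 4 skeletal muscle markers. A peak at a marker thus does not by itself name a cell type. In iPSCs, all 9 pluripotency markers and 4 of 10 fibroblast markers had an H3.3 peak, where 61.2% of all genes did. In cKit+, 3 of 10 hematopoietic markers had an H3.3 peak and Ptprc and Kit had none, while 7 of 10 fibroblast markers had one. Of all genes 33.3% had one there. In cKit-, 5 of 10 hematopoietic markers, Ptprc among them, and 7 of 10 fibroblast markers had one, where 31.9% of all genes did. H3.3 at these markers thus does not decide the hematopoietic label of cKit+, a library with 1.65% of its tags in peaks.

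2 pairs of libraries from like cells give the only gauge of the spread between libraries. MEF and D0 are both fibroblasts of day 0, and the MEF score of 4 of 8 members was 2-fold or more below D0, where 63.3% of 14543 genes with a peak were (calls are made on scores + 5). The ratio of D0 to MEF ran from 1.31 for Snai1 to 6.13 for Zeb1. When each score was taken as a share of all peak scores of its library, 1 of 8 was 2-fold or more below D0, Zeb1, with a log2 difference of -1.27, against 28.5% of genes. Between ESD3 and iPSCs, 5 members had no H3.3 peak in either, and Snai1 differed by 2.61-fold, Zeb2 by 1.49-fold and Snai2 by 1.12-fold. Differences below about this size between 1 library and another cannot be told from the spread between libraries.

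In D0 fibroblasts all 8 genes carried H3.3 and H3K4me3, and all but Twist1 carried H3K36me3. Of all genes 61.9% had an H3.3 peak there, 70.2% an H3K4me3 peak and 49.7% an H3K36me3 peak. H3.3 covered 83.9% of the Twist2 window, 68.6% of the Snai1 window and 68.3% of the Prrx1 window. It covered 33.7% at Snai2, 33.5% at Twist1, 20.0% at Zeb1, 15.2% at Zeb2 and 9.90% at Cdh2. Per covered kb the genes were much more alike, from 12.6 tags per kb at Twist1 to 17.6 at Snai1. The genes thus differed in covered length more than in tags per covered kb.

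H3.3 lay in different parts of these genes. At Twist1, 83.1% of the covered bases were upstream of the gene, and at Snai2 73.8% were. At Snai1 none were upstream in D0, and 64.5% lay past the end of the gene, in a peak from 1.81 to 11.1 kb after the start site. At Zeb1, Zeb2, Cdh2, Prrx1 and Twist2 most covered bases were intronic, from 75.1% at Twist2 to 93.5% at Cdh2. The first start site itself was under an H3.3 peak in only 2 of 8 members in D0, Snai2 and Prrx1, where it was in 15.0% of all genes. H3K4me3 by contrast covered the first start site of all 8, as in 61.4% of all genes. In D0, all H3.3-covered bases in the windows of Snai1, Snai2 and Twist1 were also under H3K4me3, but only 20.8% were at Twist2, 10.1% at Prrx1 and 6.96% at Cdh2.

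**Figure D1:**
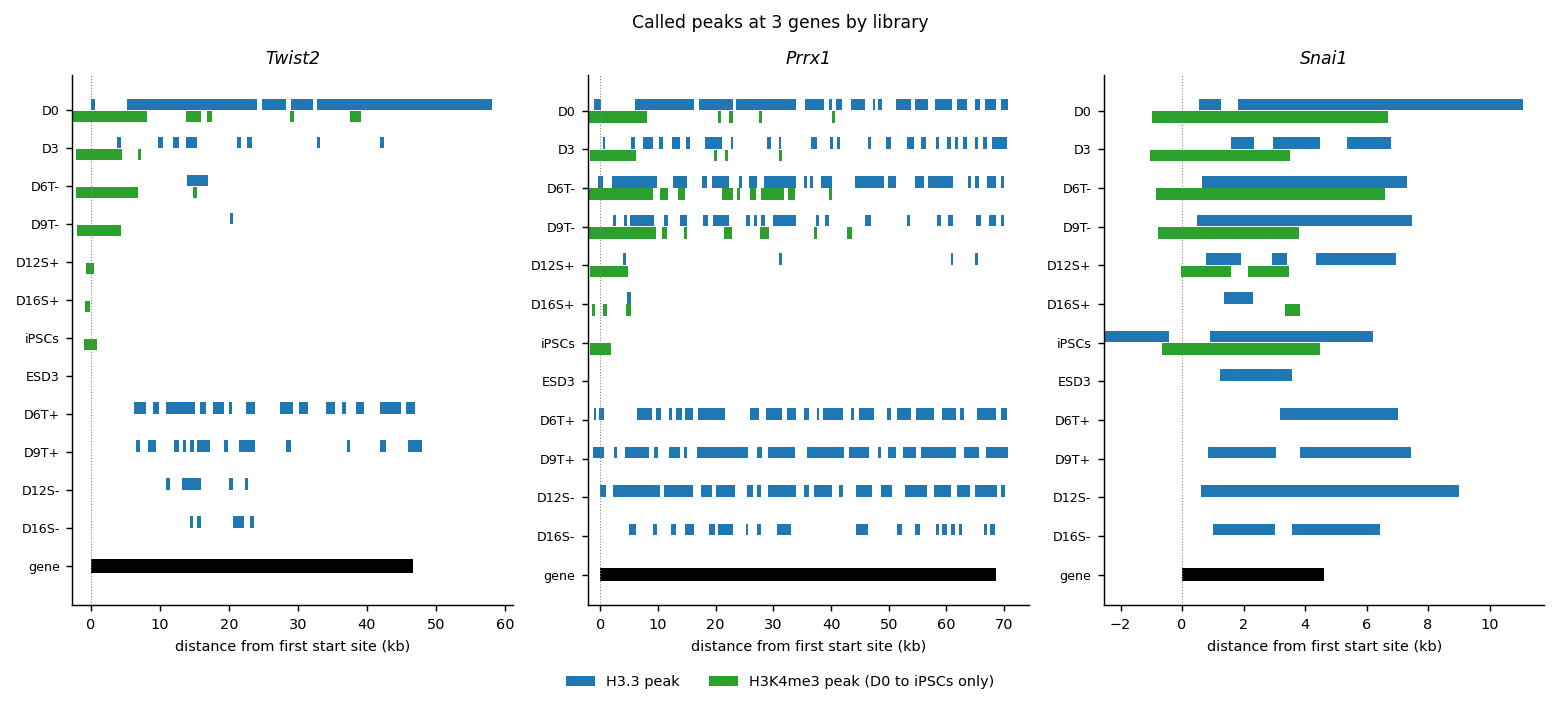
Called peaks of H3.3 (blue) and H3K4me3 (green, measured only from D0 to iPSCs) at Twist2, Prrx1 and Snai1, by library, with distance from the first start site in kb on the horizontal axis and the gene as a black bar. At Twist2 the H3.3 of D0 fills most of the stretch from 5.27 to 58.1 kb and none is called in D12S+, D16S+, iPSCs or ESD3, while an H3K4me3 peak of 1.80 kb over the start site remains in iPSCs. At Snai1 an H3.3 peak is called in every library shown.

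The end points were compared first. Going from D0 to iPSCs, the H3.3 score of 7 of 8 members was lower by 2-fold or more, against 39.7% of 15728 genes. The exception, Snai1, lay just outside, at a log2 difference of -0.99. 5 members with a peak in D0 had none in iPSCs (Zeb1, Twist1, Twist2, Prrx1 and Cdh2), against 15.4% of 13763 genes. The same 5 had no peak in ESD3. The median log2 difference of the members was -4.82 and that of all genes was -0.50. For a gene without a peak this difference depends on the 5 tags added to each score, so the scores below say more than the ratio.

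The SNAIL genes kept H3.3 in iPSCs. Snai1 had a score of 176 in D0 (95% exact Poisson interval 160 to 192, which like all such intervals covers counting error only). On the route it had scores of 50.0 on day 3, 116 on day 6 (D6T-), 110 on day 9 (D9T-), 70.4 on day 12 (D12S+) and 15.2 on day 16 (D16S+), and then 85.6 in iPSCs (76.9 to 95.0). iPSCs thus stood at 48.8% of D0 and above D16S+ (10.1 to 21.9), while the interval of D12S+ (59.9 to 82.2) overlapped that of iPSCs. In peaks were 13.96% of H3.3 tags in iPSCs, 6.93% in D12S+ and 4.88% in D16S+. The iPSC score was 2.74 times that of the input. With only peaks of at least 4-fold over input the log2 difference from D0 was -5.09. The iPSC peaks were not in the same places as those of D0: 28.7% of the covered bases were upstream of Snai1, where D0 had none. ESD3 had 32.8, in a single peak within the gene. Counting only peaks that touched the 1 kb on either side of the start site, the order turned. The log2 difference was then 2.54 in favour of iPSCs, with each such peak at its whole score. The start site itself was under no H3.3 peak in D0 or iPSCs.

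Snai2 had a single H3.3 peak or none in most libraries. Its score was 46.2 in D0, no peak was called on day 3, and days 6 and 9 gave 18.2 and 16.8. Days 12 and 16 gave 7.78 and 7.74, iPSCs 7.77 and ESD3 6.94. The last 4 libraries each rested on 1 peak of 0.500 to 0.630 kb upstream of the start site. Those values are close to the lowest score that could be called, so they show a peak near this place in each library but no order among them. Both its D0 and its iPSC peak lie under a 4-fold excess over input.

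The ZEB genes differed at the end of the route. Zeb1 had 544 in D0 and, from day 3 to day 16 of the route, 87.3, 97.4, 52.2, 21.6 and 7.20, with no peak in iPSCs or ESD3. Its largest step was the first, to 16.1% of D0 on day 3. Zeb2 had 266 in D0, and the same days gave 105, 258, 232, 42.4 and no peak, with 15.7 in iPSCs and 23.4 in ESD3. On days 6 and 9 Zeb2 thus stood at 97.2% and 87.2% of D0, and its low values began with D12S+. That library was the first of the route sorted by SSEA-1, and it was less enriched than D9T- (6.93% against 14.83% of H3.3 tags in peaks). The iPSC value of Zeb2 came from 3 intronic peaks of 0.500 kb each. In iPSCs and ESD3 there was a peak about 80 kb into the gene in both, from 79.6 to 80.1 kb and from 79.8 to 80.3 kb.

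The TWIST genes had no called H3.3 peak on the successful route from D12S+ on. Twist2 had 859 in D0, then 73.8, 38.4 and 5.56 on days 3, 6 and 9, and none from D12S+ to iPSCs. The first step, to 8.59% of D0, took the covered length from 51.3 kb in 5 peaks to 5.73 kb in 8. Among 14631 genes with a peak in D0 or D3, 1.41% had a lower ratio. Twist1 had 37.3 in D0, none called on day 3, 8.60 and 8.65 on days 6 and 9, and none after that. The 2 later values came from 1 peak each, at 3.05 to 3.82 kb and at 1.24 to 1.74 kb after the start site, while most of the D0 score lay upstream. Neither of them overlapped a D0 peak.

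Prrx1 had its sharpest step between D9T- and D12S+, where the sort changes from Thy-1 to SSEA-1. From 773 in D0 it went to 307, 582 and 346 on days 3, 6 and 9, to 25.8 and 12.8 on days 12 and 16, and to no peak in iPSCs. The number of covered kb went from 49.3 in D0 and 40.6 in D6T- to 2.00 in D12S+. In peaks were 14.83% of H3.3 tags in D9T- and 6.93% in D12S+, so day, sort and enrichment cannot be told apart at this step. Cdh2, the adhesion gene, differed from the factors on day 3. It had 301 in D0 and 316 in D3, so it was the one member without a lower score there. Days 6, 9 and 12 gave 148, 7.57 and 10.9, and D16S+ and iPSCs had no peak.

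**Figure D2:**
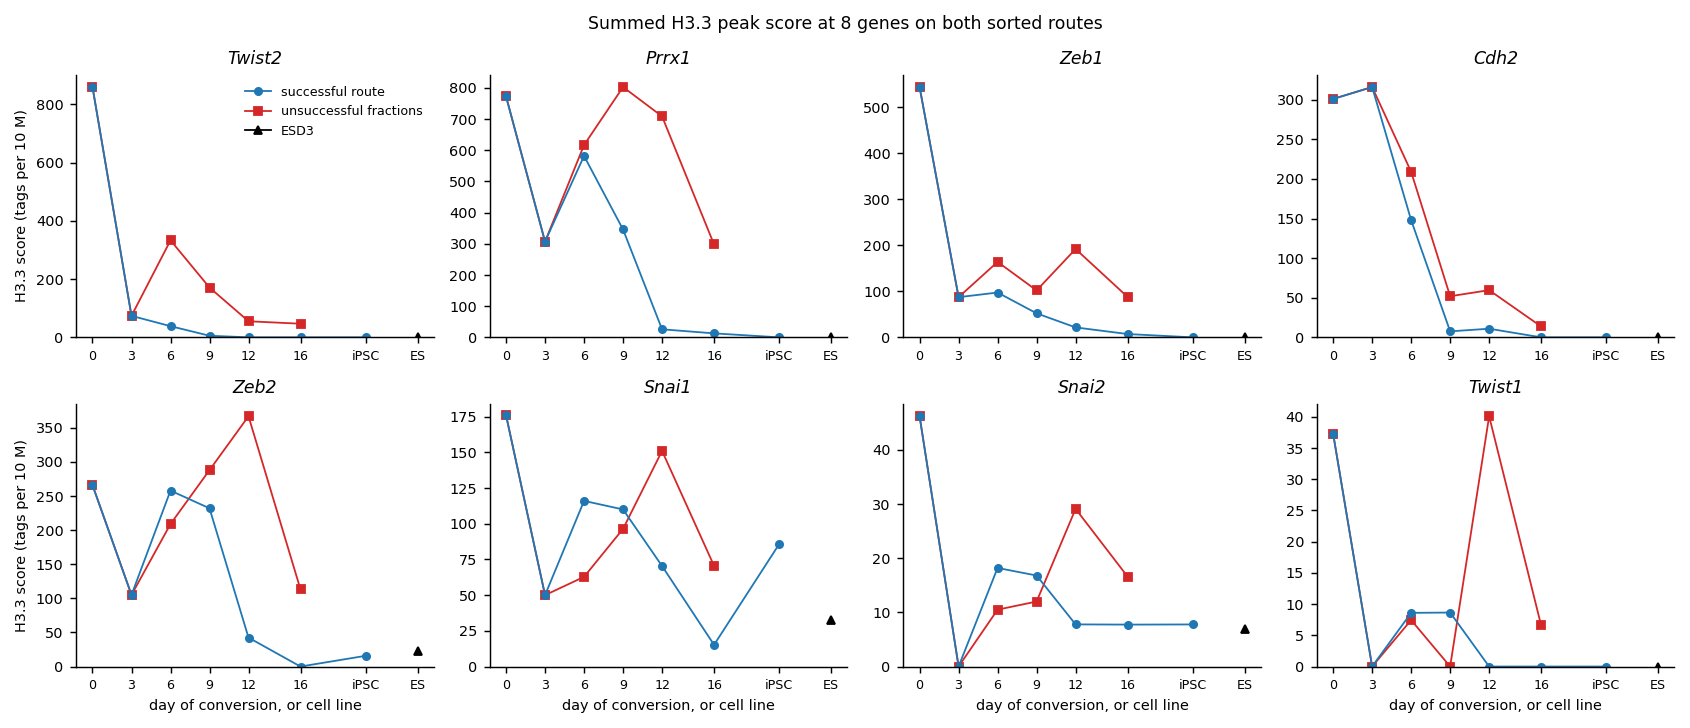
Summed H3.3 peak score (tags per 10 M) of the 8 genes by day of conversion, with iPSCs and the embryonic stem cell line (ES) at fixed places to the right and not to scale in time; circles, successful route; squares, unsuccessful fractions, which share D0 and D3 with the first; triangle, ESD3; each point is 1 library and a gene without a peak is drawn at 0. At Twist2 the routes part on day 6 (38.4 against 333), and at Prrx1 the gap widens to 25.8 against 709 on day 12.

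On day 3 more members were lower in H3.3 than in H3K4me3, and the same held among all genes (37.3% and 9.09%). The D3 library had 11.30% of its H3.3 tags in peaks, against 19.08% in D0. For H3K4me3 these shares were 22.92% and 30.37%. From D0 to D3 the H3.3 score of 7 of 8 members was lower by 2-fold or more, against 37.3% of 14631 genes. As a share of all peak scores 4 of 8 were (Snai2, Zeb1, Twist1 and Twist2), against 18.5% of genes. With only peaks of at least 4-fold over input 4 were as well, against 41.4%. As shares, the log2 differences of the other members lay between -0.99 at Snai1 and 0.81 at Cdh2. Among members with a peak in both libraries, only Twist2 (11.6-fold) and Zeb1 (6.23-fold) exceeded 6.13, the largest ratio between the fibroblast libraries. Zeb1 had 87.3 in D3 and 88.7 in MEF. In D6T- Snai1, Zeb2 and Prrx1 stood at 66.4%, 97.2% and 75.3% of their H3.3 score in D0. For H3K4me3 2 of 8 members were lower by 2-fold or more, Snai1 (460 to 136) and Twist2 (817 to 327), against 9.09% of 15804 genes. The other 6 kept from 54.9% of their D0 score at Snai2 to 97.7% at Cdh2. At Twist1, where no H3.3 peak was called in D3, the H3K4me3 score was 451 against 594 and the peak over the start site was 8.88 kb long.

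The 2 marks were then followed to iPSCs. For H3K4me3 all 8 members were lower in iPSCs than in D0 by 2-fold or more, against 68.7% of 16285 genes. As a share of all peak scores 7 of 8 were, with 14.7% of genes. Each nevertheless kept a called H3K4me3 peak, so 0 of 8 went from a peak to none, against 5.96% of 15620 genes. In iPSCs the H3K4me3 scores were between 35.2 (Twist2) and 95.4 (Snai1), where D0 had 379 (Cdh2) to 817 (Twist2). The peak over the first start site was shorter in every member, for example 10.8 kb in D0 and 1.80 kb in iPSCs at Twist2, 11.9 and 1.91 kb at Zeb2, 10.2 and 3.60 kb at Prrx1, and 7.66 and 5.16 kb at Snai1. It was also less dense. The members had 51.1 to 79.9 H3K4me3 tags per covered kb in D0 and 13.5 to 22.9 in iPSCs, whereas the 3 members with H3.3 in iPSCs had 10.4 to 12.3 H3.3 tags per kb against 12.6 to 17.6 over the 8 in D0.

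In D6T- the score was above D0 at Prrx1 (1073 against 747), Zeb2 (950 against 793) and Zeb1 (443 against 395). D6T- was also the most enriched H3K4me3 library, with 34.77% of tags in peaks against 30.37% in D0, and no pair of like H3K4me3 libraries gives a spread for such small differences. At Prrx1 the covered length in that library was 23.7 kb against 12.3 kb in D0, with H3K4me3 peaks spread to about 40 kb into the gene. In D12S+ the 8 scores were between 19.6 (Twist2) and 166 (Zeb2). In D16S+ no member had H3K4me3 over its first start site and Snai2, Zeb1 and Twist1 had no H3K4me3 peak at all, but this is the sparse library, in which 23.8% of all genes had their first start site under a peak against 58.2% in iPSCs. All 8 were covered again in iPSCs.

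In iPSCs no H3K36me3 peak was called at any of the 8 members, so 7 of the 7 with a peak in D0 had none, against 36.1% of 11046 genes. The score of 7 members was lower by 2-fold or more, against 88.0% of 11731 genes, or 36.9% when scores were taken as shares. The H3K36me3 library of iPSCs had 2.88% of its tags in peaks and that of D0 31.34%, and with equal numbers of top peaks 4 members were lower, against 83.9% of genes. The part of enrichment in this result was not tested. In D0 the scores were 1874 at Zeb1, 1031 at Prrx1, 1000 at Zeb2, 285 at Cdh2, 132 at Twist2, 66.2 at Snai1 and 38.5 at Snai2. Snai1 and Snai2 had their last H3K36me3 peaks in D3, with 6.21 and 8.13. At Twist2 the values were 84.7 in D3, 28.2 in D6T- and 160 in D9T-. The enrichment of these libraries had the same order, with 14.13%, 7.50% and 42.38% of their H3K36me3 tags in peaks. Their part in the result was not tested.

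**Figure D3:**
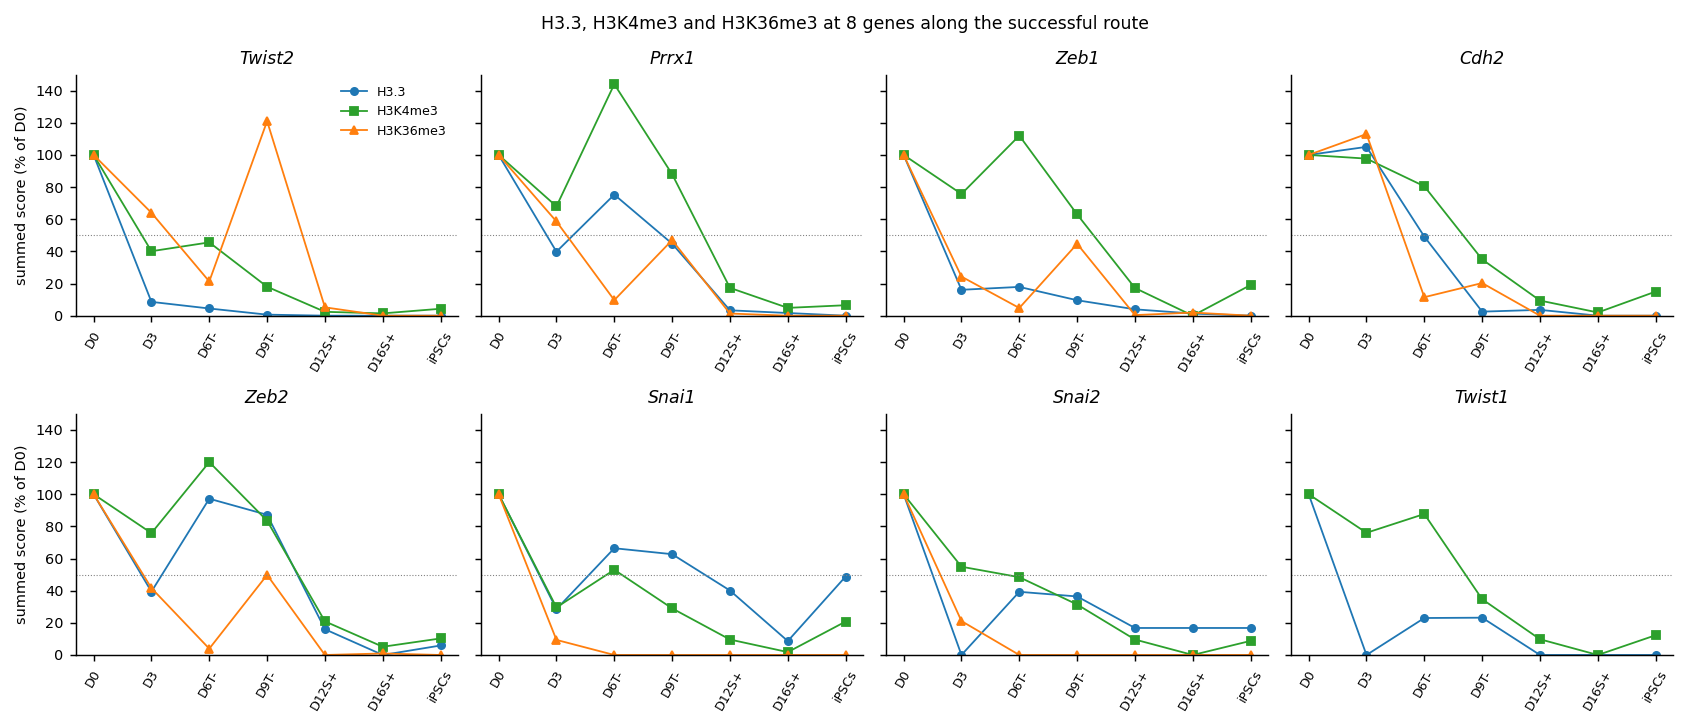
Summed peak score of H3.3 (circles), H3K4me3 (squares) and H3K36me3 (triangles) at the 8 genes along the successful route, as a percentage of the score in D0, 1 library per point; the dotted line marks 50% and Twist1 had no H3K36me3 peak. On day 3 H3.3 stands at 0% at Twist1 and 16.1% at Zeb1, where H3K4me3 stands at 76.0% and 75.7%.

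For the order of loss, each mark was given the first library of the successful route from which its score stayed at or below 50% of D0 up to iPSCs. H3.3 came first at 5 of 8 members, against 23.2% of 12940 genes with both marks in D0. At Twist1 and Zeb1 H3.3 was down from D3, and H3K4me3 only from D9T- and D12S+. At Snai2 the libraries were D3 and D6T-, at Cdh2 D6T- and D9T-, and at Prrx1 D9T- and D12S+. At Twist2 both marks were down from D3, and at Zeb2 both from D12S+. Snai1 had the other order, with H3K4me3 down from D9T- and H3.3 from D12S+. Among all genes, 41.0% had this other order. By the stricter measure, the first library from which no peak was called up to iPSCs, H3.3 came first at 5 of 8 members (Twist1 and Twist2 from D12S+, Cdh2 from D16S+, and Zeb1 and Prrx1 in iPSCs), against 11.0% of the same genes, and the other 3 had both marks in iPSCs. All 8 had an H3K4me3 peak in iPSCs, so by this measure H3K4me3 was not lost at any member and the count is of members that lost H3.3 alone. Without the flank of 1 kb H3.3 came first at 3 members by the 50% measure. The order rests on 1 library per step, and 3 members (Prrx1, Zeb2 and Snai1) were below 50% of D0 in H3.3 on day 3 and above it again on day 6. The calls at Cdh2 and Snai2 lie near the limit. H3.3 of Cdh2 stood at 49.2% in D6T-, and H3K4me3 of Snai2 at 54.9% in D3 and 48.4% in D6T-. In D0 Snai2 and Twist1 had H3.3 scores of only 46.2 and 37.3, against H3K4me3 scores of 425 and 594. H3.3 of Zeb1 was 544 in D0 but 88.7 in MEF, and 87.3 in D3.

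The successful and unsuccessful fractions of the same day were compared next. On day 6 the score of 1 of 8 members was lower by 2-fold or more in D6T- than in D6T+, against 7.37% of 14159 genes. This was Twist2, with 38.4 (31.7 to 46.1) against 333 (309 to 358), an 8.67-fold difference that only 0.487% of genes exceeded in that direction. The others were closer: in D6T- and D6T+ Prrx1 had 582 and 617, Zeb2 258 and 209, Zeb1 97.4 and 164, Cdh2 148 and 209, Snai1 116 and 62.8, Snai2 18.2 and 10.5, and Twist1 8.60 and 7.45. D6T- was the more enriched library here, and the median gene was higher in it by 0.99 on the log2 scale. As a share of all peak scores, Twist2, Zeb1 and Cdh2 were lower in D6T- by 2-fold or more, against 12.8% of genes. With only peaks of at least 4-fold over input 6 members were, against 20.3% of genes, and with equal numbers of top peaks 4 were, against 11.9%.

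On day 9, 3 of 8 members were lower in D9T- than in D9T+, against 11.3% of 13865 genes. They were Twist2 (5.56 against 171, 30.8-fold), Cdh2 (7.57 against 51.9, 6.85-fold) and Prrx1 (346 against 803, 2.32-fold). The ratio of Twist2 stood below that of all but 0.0361% of genes. Zeb1 had 52.2 and 102, and came to 2-fold when scores were taken as shares. Snai1, Snai2 and Zeb2 differed by 1.14-fold to 1.40-fold, and Twist1 had 8.65 in D9T- and no peak in D9T+. With only peaks of at least 4-fold over input 5 members were lower, against 55.6% of genes, and within 1 kb of start sites 1 was, against 13.3%. Fibroblast markers moved with this comparison, with a peak at 6 of 10 and a summed score of 820 in D9T- against 9 of 10 and 1200 in D9T+, and their part in the result was not tested. Of these differences only those of Twist2 and Cdh2 are larger than the largest ratio between the fibroblast libraries, 6.13.

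On day 12 all 8 were lower in D12S+ than in D12S-, against 77.7% of 14539 genes. The largest difference between libraries that both had a peak was at Prrx1, with 25.8 (19.6 to 33.3) against 709 (678 to 741), 27.5-fold. Zeb1 had 21.6 against 192 and Zeb2 42.4 against 367, while Twist1 and Twist2 had 40.1 and 55.2 in D12S- and no peak in D12S+. As shares, 5 of 8 were lower by 2-fold or more (Zeb1, Zeb2, Twist1, Twist2 and Prrx1), against 30.6% of genes, and Snai1 was higher by 0.53 on the log2 scale. On day 16, 7 of 8 were lower in D16S+ than in D16S-, against 66.3% of 13553 genes. Prrx1 had 12.8 against 298, Zeb1 7.20 against 87.8, Snai1 15.2 against 70.5 and Snai2 7.74 against 16.6. Twist1, Twist2, Zeb2 and Cdh2 had a peak only in D16S-, with 6.59, 46.8, 113 and 13.7. As shares, 6 of 8 were lower, against 43.2% of genes. With equal numbers of top peaks 4 were, against 55.7%, and within 1 kb of start sites 2 were, against 63.3%. Both late comparisons set a less enriched library against a more enriched one. Fibroblast markers moved with them: 5 and 2 of 10 had an H3.3 peak in D12S+ and D16S+, with summed scores of 378 and 102, against 9 of 10 in D12S- and D16S-, with 1355 and 649. Their part in the result was not tested.

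**Figure D4:**
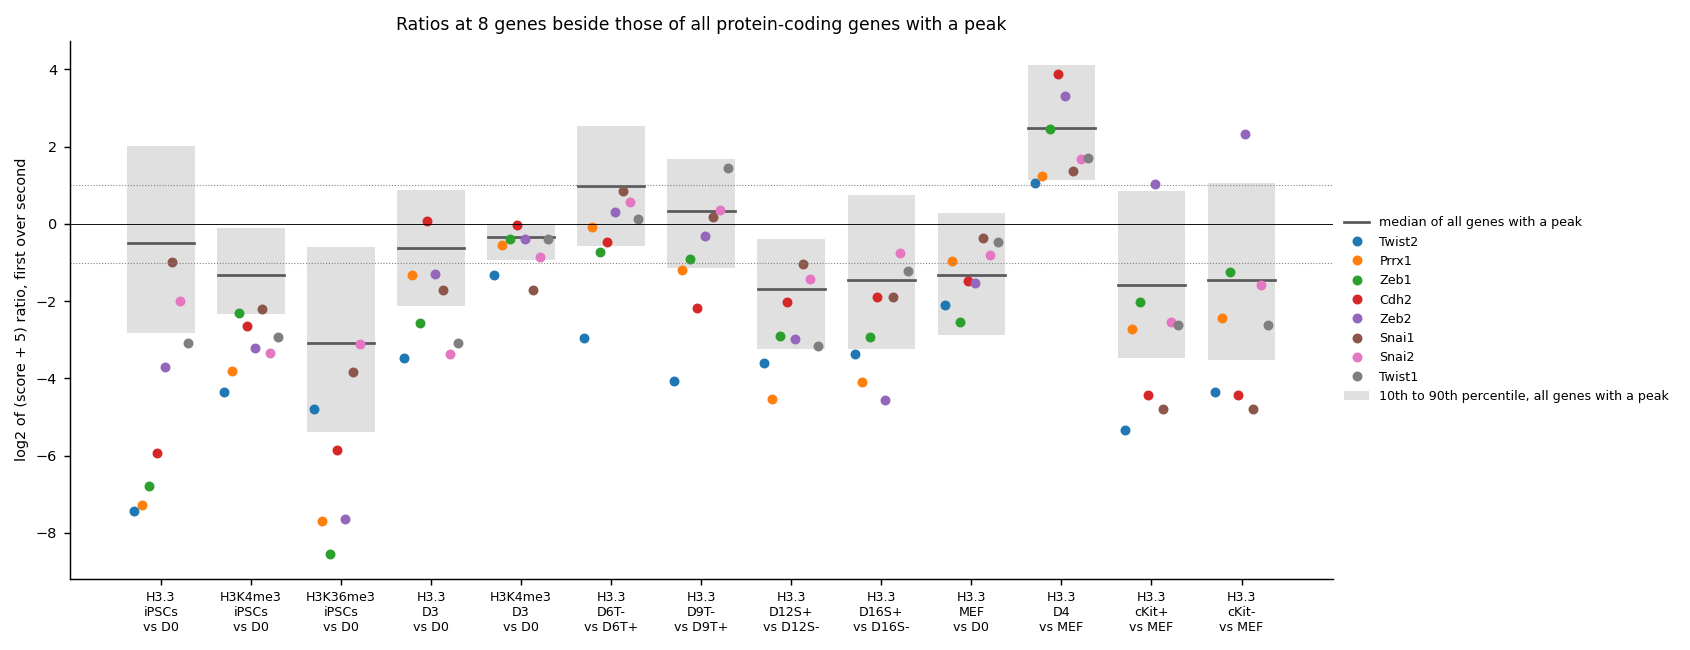
Log2 ratio of (score + 5) at the 8 genes (coloured points) for each comparison named below the axis, with the median (line) and the 10th to 90th percentile (grey) of all protein-coding genes with a peak in at least 1 of the 2 libraries; dotted lines mark 2-fold, 1 library per group, and a gene without a peak enters with a score of 0. Twist2 lies below the grey range in both early route comparisons, at -2.96 on day 6 and -4.06 on day 9, and Zeb2 lies above it in cKit- against MEF, at 2.34.

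The unsuccessful fractions were then set against D0. In D16S- all 8 members were lower than in D0 by 2-fold or more, against 38.9% of 14843 genes. As shares, 4 of 8 were (Zeb1, Twist1, Twist2 and Cdh2), against 23.7% of genes. This comparison shares the D0 library with those of D3 and iPSCs. Against the other fibroblast library, MEF, Zeb1 had 87.8 in D16S- and 88.7 in MEF, within counting error, and Zeb2 had 113 and 89.2. The others were lower in D16S- than in MEF: Twist2 (46.8 and 198), Cdh2 (13.7 and 104), Snai1 (70.5 and 134), Prrx1 (298 and 396), Twist1 (6.59 and 25.6) and Snai2 (16.6 and 24.3). Over the unsuccessful fractions of days 6, 9, 12 and 16 Twist2 had 333, 171, 55.2 and 46.8, so its score fell up to day 12 there as well. The intervals of D12S- (46.8 to 64.8) and D16S- (37.9 to 57.1) overlapped. Cdh2 had 209, 51.9, 59.6 and 13.7 in the same fractions. Prrx1 by contrast had 617, 803, 709 and 298, and in D9T+ and D12S- it covered 50.8 and 49.1 kb, as in D0 with 49.3 kb. Zeb2 had 209, 288, 367 and 113. Its highest reprogramming value was thus in D12S-, not in D0 with 266. D12S- was the most enriched of the 12 libraries, with 21.96% of H3.3 tags in peaks, and Zeb2 differed by 2.98-fold between D0 and MEF. Twist1 had 40.1 (32.9 to 48.3) in D12S- and 37.3 (30.4 to 45.4) in D0, within counting error, and no peak in D9T+.

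In transdifferentiation all 8 members had H3.3 in MEF and D4, where 53.3% and 72.1% of all genes did. In cKit+ 3 of 8 had it, close to the 33.3% of all genes, and in cKit- 5 of 8, against 31.9%. In MEF, 6 of 8 members had H3.3 over the first start site, against 12.7% of all genes, and in D4 all 8 did, against 51.9%. From MEF to D4 the score of all 8 was higher by 2-fold or more, against 92.9% of 16231 genes, or 37.2% as shares, when Cdh2 and Zeb2 were higher and Twist2 and Prrx1 lower. Relative to the median gene, which was higher by 2.48 on the log2 scale, Cdh2 stood 1.42 and Zeb2 0.85 above, and Twist2 1.42 and Prrx1 1.23 below. Cdh2 had 104 in MEF and 1607 in D4, over 9.18 and 129 kb.

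In cKit+, the score of 7 of 8 members was lower than in MEF by 2-fold or more, against 70.8% of 12875 genes. Snai1, Snai2, Twist1, Twist2 and Cdh2 had 134, 24.3, 25.6, 198 and 104 in MEF and no peak in cKit+. Prrx1 had 396 in MEF and 56.1 in cKit+, and Zeb1 had 88.7 and 18.2. As shares 5 of 8 were lower, against 51.1% of genes, and with only peaks of at least 4-fold over input 1 member was, against 87.1% of the 1341 genes that still had a peak. In cKit- 7 of 8 were lower too, against 67.1% of 12985 genes, or 4 of 8 against 54.0% as shares. Both comparisons share the MEF library. There Prrx1 had 69.4, Zeb1 34.3, Twist2 4.94 and Snai2 4.85, and Snai1, Twist1 and Cdh2 had no peak.

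Zeb2 differed from the other 7 in direction. It had 89.2 (80.8 to 98.2) in MEF, 937 (913 to 961) in D4, 188 (179 to 197) in cKit+ and 471 (452 to 490) in cKit-. It was the 1 of 8 members that was higher by 2-fold or more than in MEF in cKit+, against 6.09% of genes, and in cKit-, against 11.4%. As shares it was again the 1 member that was higher, against 26.1% of genes in cKit+ and 25.7% in cKit-. Per covered kb it had 9.64 tags in cKit+, where the members with a peak had 8.58 to 9.64, and 13.5 in cKit-. In cKit- it stood 2.51-fold above cKit+. The signal was spread over 24 peaks in cKit+ and 32 in cKit-, none over the first start site. The summed score was 2.15 and 2.19 times that of the input, close to the lowest fold of 2 that was called. Only 1.65% and 2.31% of tags were in peaks in these libraries. Fibroblast markers had a summed score of 319 in cKit+ and 373 in cKit- against 2226 in MEF, and H3.3 of converted cells, of fibroblasts and of OP9 stromal cells cannot be told apart here. ZEB2 is known as a regulator of blood cell formation as well as of EMT.

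**Figure D5:**
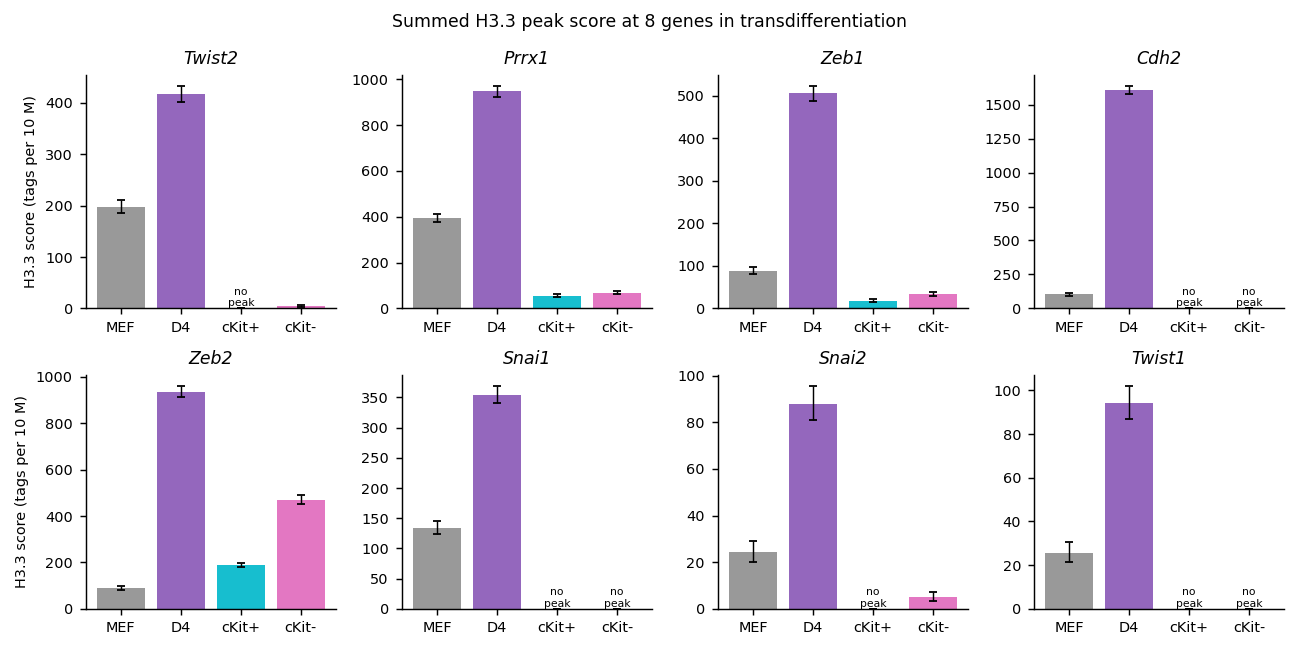
Summed H3.3 peak score (tags per 10 M) of the 8 genes in MEF, D4, cKit+ and cKit-, 1 library each, with 95% exact Poisson intervals as error bars (counting error only) and axes that start at 0. Of the 8 genes only Zeb2 has a higher score in cKit+ (188) and cKit- (471) than in MEF (89.2).

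Other genes of the program, from lists chosen by function, are given by their counts. Among 14 other EMT regulators 8 were lower in H3.3 by 2-fold or more in iPSCs than in D0, 0 were higher, and the median log2 difference was -1.44, where 39.7% of all genes were lower, 22.9% were higher and the median was -0.50. Those with the highest scores were the E-protein genes Tcf4 (977 in D0, 28.0 in iPSCs), Tcf12 (573, 148) and Tcf3 (250, 148). All 20 mesenchymal effector genes were lower, with a median of -5.03, among them Fbn1, a microfibril gene (2311, 7.17), Col5a1, a collagen gene (2293, 13.4), and Cd44, a hyaluronan receptor gene (1471, 5.59). Epithelial genes differed in direction. Among 21 epithelial genes 16 were higher in iPSCs and 1 was lower, and among 10 epithelial regulators 8 were higher and 0 lower, against the 22.9% of all genes that were higher. Cdh1, the E-cadherin gene and a target of SNAIL and ZEB factors, had 42.7 in D0 and 755 in iPSCs, and Grhl2, an epithelial activator, had 17.8 and 342.

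The microRNAs of the miR-200 family, and miR-205 outside that family, repress Zeb1 and Zeb2. Of their 6 loci 4 were higher in H3.3 in iPSCs than in D0, where 22.9% of all protein-coding genes were, and 2 had no peak in either. Mir141 and Mir200c lie under shared peaks, with 39.5 in D0 and 87.0 in iPSCs for both. Both already had 76.0 in D3 and 109 in D6T-, so their score was not highest in iPSCs. Mir205 had none in D0 and 21.3 in iPSCs. In D16S+ against D16S-, 7 of 14 EMT regulators, 18 of 20 mesenchymal effectors, 10 of 21 epithelial genes and 6 of 10 epithelial regulators were lower by 2-fold or more, while 0, 1, 3 and 1 were higher. Of all genes 66.3% were lower there, with a median of -1.46. The list medians were -2.43 for mesenchymal effectors and -1.50 for epithelial regulators, then -0.87 for epithelial genes and -0.51 for the other EMT regulators. Of the 14 EMT regulators 5 had no peak in either library. In D9T- against D9T+, 10 of 20 mesenchymal effectors were lower, where 11.3% of all genes were, and 12 of 21 epithelial genes were higher, where 25% of all genes were. Of the 14 other EMT regulators 1 was lower there and 2 were higher, and of the 10 epithelial regulators 0 and 8.

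Among themselves the members fell into looser and tighter pairs over the 12 reprogramming H3.3 libraries, which share depth and enrichment across all genes. Pearson's r of log2(score + 5) was highest for Zeb1 and Prrx1 (0.95) and lowest for Snai2 and Cdh2 (0.19). Of 13230 genes with a peak in at least 6 of the 12 libraries, those most like each member were Anxa1, Cyth3 and Esd for Prrx1 (r = 0.992, 0.989 and 0.983), Acap2, Tcf4 and Bahcc1 for Zeb2 (0.987, 0.987 and 0.984), and A330021E22Rik, Adcy7 and Esyt2 for Twist2 (0.987, 0.978 and 0.971). For Zeb1 they were Actr3, Chst11 and Ptpre (0.980, 0.979 and 0.976), for Snai1 Plekha5, 9030224M15Rik and Ptprk (0.968, 0.963 and 0.957), and for Cdh2 Mamdc2, Nrp1 and Cdh11 (0.966, 0.954 and 0.953). Twist1 and Snai2 were matched less closely, by Phka2, Rnf26 and Gm9754 (0.961, 0.911 and 0.908) and by Rftn1, Tbrg1 and Prickle1 (0.901, 0.900 and 0.889). These are descriptions over 12 libraries.

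The windows of Zeb1, Zeb2, Prrx1 and Cdh2 hold parts of other annotated transcripts, of which Gm10125, upstream of Zeb1, is protein-coding. Peaks shared with such a transcript were counted in the score of the member. The windows of Snai1, Snai2, Twist1 and Twist2 hold no other gene. The genes lie at chr2:167363695-167368314 (Snai1), chr16:14705945-14709488 (Snai2), chr18:5591858-5775465 (Zeb1), chr2:44839154-44972915 (Zeb2), chr12:34642536-34644682 (Twist1), chr1:93698038-93744605 (Twist2), chr1:165175247-165243841 (Prrx1) and chr18:16747386-16967755 (Cdh2), all on mm9. Their lengths run from 2.15 kb at Twist1 to 220 kb at Cdh2.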

How the data were processed

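ChIP-Seq for H3.3 (16 libraries), H3K4me3 (7) and H3K36me3 (7) was analysed from 30 deposited peak lists; the other 16 samples were input libraries, used only through the input value of each peak. Per the study's methods and the file headers, the authors mapped reads to mm9 with STAR, removed reads that mapped to several loci, and called peaks in each library with HOMER findPeaks in histone style against an input library. Tool versions are not given in the sources used here. The deposited signal is the normalized tag count of a peak, scaled by the authors to 10 M tags with no input subtracted. The deposited fold over input is a ratio of at least 2 for H3.3 and 4 for the other marks, at a Poisson p limit over input of 1e-04. Because peaks depend on depth (13.2 to 91.8 M tags) and enrichment, a missing peak is not a zero.

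Here each peak that touched a gene of GENCODE vM1 (22380 protein-coding entries, 22238 symbols) from start -1 kb to end +1 kb gave its whole score to the gene. Ratios are log2 of scores + 5, and 2-fold was the limit for a call. With 1 library per group there was no test; counts over the 8 members stand beside those over all genes with a peak in either library, and 95% Poisson intervals cover counting error only. The sum was checked on simulated peaks. All 8 members are described, together with up to 3 genes of highest H3.3 score from each list of companion genes and the 3 genes of most similar course per member. The members and lists were chosen with earlier results of these data known. There were 8 alternatives: equal numbers of top peaks, fold over input of at least 4, peaks at or above the median score, scores in proportion to overlap, no flank, shares of the library's peak score, a pseudocount of 1, and start sites with 1 kb only. Analyses used Python 3.11.15 with numpy 2.4.6, pandas 2.3.3, scipy 1.17.1 and matplotlib 3.10.9.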

Additional observations from a re-analysis of the deposited data

How the results depend on the processing

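Each of 19 summary values was recomputed under 8 alternatives, and 121 of 152 values stayed within 1.5 times the value reported (or, for the median, within 1 on the log2 scale). The counts lower in iPSCs than in D0 were 7 or 8 of 8 for H3.3 and for H3K4me3 under all 8. With equal numbers of top peaks the count of lower members became 4 for H3K36me3 in iPSCs, 4 for day 6 (successful against unsuccessful) and 4 for day 16, and MEF against D0 became 2. With only peaks at least 4-fold over input, day 6 became 6, day 9 became 5, D3 against D0 for H3.3 became 4, cKit+ against MEF became 1, D4 against MEF (lower) 1 and MEF against D0 7; H3.3 was lost first at 8 members by the absence of peaks, and after H3K4me3 at 0 by the 50% measure. The median cKit+ peak has a fold of 2.19. Day 6 became 2 with peaks at or above the median score and 2 with scores in proportion to overlap, where H3.3 came last at 2 members. With no flank H3.3 came first at 3 and last at 2. With shares of the library's peak score day 6 became 3, day 12 became 5, D3 against D0 became 4 for H3.3 and 1 for H3K4me3, D4 against MEF (lower) 2, MEF against D0 1, and H3.3 was lost with H3K4me3 at 0 and after it at 2 members. A pseudocount of 1 gave a median log2 difference for H3.3 of -6.75. Within 1 kb of start sites that median was -2.49, H3K36me3 in iPSCs became 1, day 9 became 1, day 12 became 5 and day 16 became 2. No paired analysis was possible because every group has 1 library. For single genes, 108 of 192 values stayed alike and 84 moved, and the log2 difference of Snai1 for H3.3 ran from -5.09 to 2.54. The cause of these moves was not tested. D12S+, D16S+ and cKit+ have the smallest shares of H3.3 tags in peaks beside cKit-, and the absence of a peak there is not the absence of the mark.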
